A study of Mus musculus with 6 samples.

Results

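Lsd1 occupancy was examined at 10 imprinted genes of growth control and adipogenesis, namely Dlk1, Meg3, Peg3, Mest, Plagl1, Grb10, Cdkn1c, Sgce, Peg10 and Ndn, out of 26182 annotated mouse genes. The genes were chosen by name. An Lsd1 peak was counted for a gene when its centre lay within the span of the curated RefSeq transcripts on mm10 or within 10 kb either side. By this rule the 10 genes held 10 of the 95852 deposited peaks, 6 of them in myogenic and 2 in each of the adipogenic libraries.

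The peaks come from chromatin immunoprecipitation and sequencing (ChIP-seq) of Lsd1 in C2C12, an immortal line of mouse myoblasts, on day 1 of differentiation. Wild-type cells were kept in myogenic medium, which is low in horse serum, or in adipogenic medium, which holds isobutylmethylxanthine, indomethacin, dexamethasone, insulin, triiodothyronine and rosiglitazone. In the third condition, LSD1(OE) cells were kept in adipogenic medium. They are a lentivirally transduced line, selected with G418, in which doxycycline switches on Flag-tagged LSD1. The labels name no doxycycline for wild-type cells, so that line, doxycycline and LSD1 level cannot be told apart. Every condition has 1 ChIP library and 1 input library. There is thus no replicate and no test between conditions, and differences given here are differences between single libraries. Peak lists hold no expression values, so the myoblast label was not checked against marker genes, and no read was assigned to a parental allele. Without duplicates, 46155625 tags of the myogenic, 63915769 of the adipogenic and 55193310 of the LSD1(OE) ChIP library were left.

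Imprinted genes are expressed mainly from the maternal or from the paternal chromosome, according to DNA methylation set in the germ line at differentially methylated control regions. Many of them lie in clusters, and several balance fetal growth, muscle mass and fat storage. Lsd1 removes methyl groups from H3K4, usually as part of the CoREST complex, and its paralogue Kdm1b is needed for DNA methylation imprints in the oocyte.

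Among all deposited peaks, a smaller share of these genes than of all genes had an Lsd1 peak, and the shares were nearest to each other in adipogenic medium. There the difference was small for 10 genes and depended on the peak limit. With a peak score, defined below, of at least 100, 3 of the 10 genes had an adipogenic peak, against 29.2% of all genes. In myogenic medium 4 of the 10 genes had at least 1 peak, namely Mest, Grb10, Sgce and Peg10, whereas 62.5% of all annotated genes did. In adipogenic medium 3 genes had one, against 41.2% of all genes, and in LSD1(OE) cells the same 3, Grb10, Sgce and Peg10, against 53.9%. The other 6 genes, Dlk1, Meg3, Peg3, Plagl1, Cdkn1c and Ndn, had no peak in any library, as did 33.6% of all genes. Mest had a peak in the myogenic library only, a pattern shown by 9.66% of all genes, while Grb10, Sgce and Peg10 had one in all 3 libraries, like 37.8% of all genes. Since Sgce and Peg10 hold the same peaks, their counts are not independent. The windows had a median length of 39.7 kb for the 10 genes and 33.5 kb for all genes. Per Mb of window the 10 genes held 12 peaks in myogenic medium and 4.01 in each adipogenic library. All gene windows together held 25.1, 11.3 and 19.2 peaks per Mb.

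A promoter peak, with its centre at most 2000 bp from a curated transcription start site (TSS), was present at Mest, Sgce and Peg10 in myogenic medium and at Sgce and Peg10 in both adipogenic libraries. These are 3, 2 and 2 of 10 genes, compared with 46.8, 27.0 and 37.3% of all genes. The divergent genes Sgce and Peg10 share a promoter region, and the same peaks were counted for both. The difference from all genes was wider among promoters rich in CpG. With a ratio of observed to expected CpG of at least 0.6 within 500 bp of a TSS, 9 of the 10 genes had such a promoter, all but Meg3, whose highest ratio was 0.506. The ratios of the 9 ranged from 0.601 at Peg3 to 1.07 at the upstream TSS of Grb10. Of these 9 genes 3 had a promoter peak in myogenic medium, whereas 79.6% of the 11854 genes with a CpG-rich promoter did. In adipogenic medium the values were 2 genes against 48.0%, and in LSD1(OE) cells 2 genes against 64.3%. The split by CpG was made after the peaks had been seen.

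**Figure D1:**
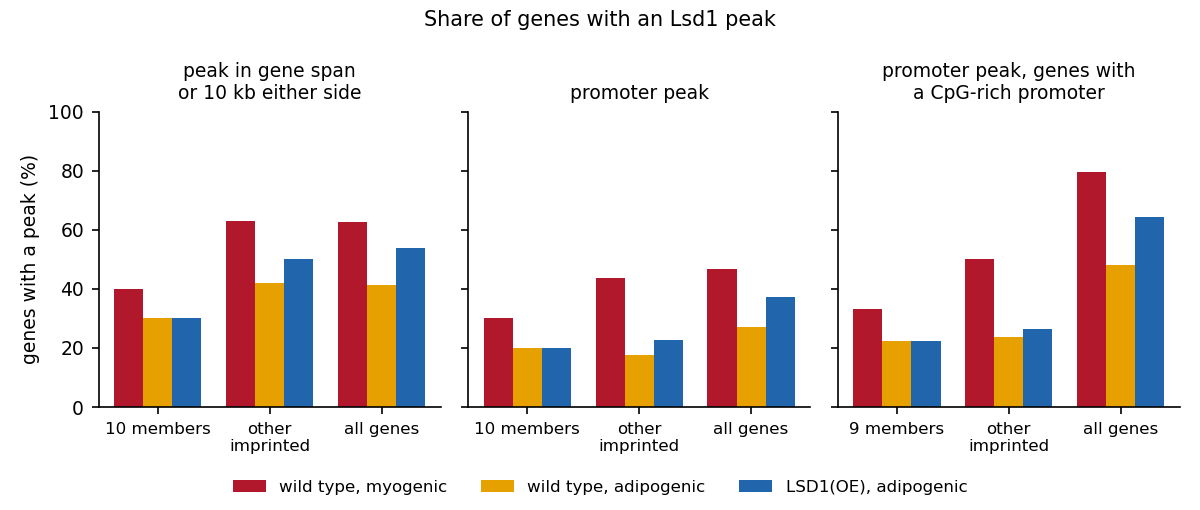
Share of genes (%) with an Lsd1 peak in the gene span or 10 kb either side (left), with a promoter peak (middle) and with a promoter peak among genes with a CpG-rich promoter (right), for the 10 imprinted genes, the other imprinted genes and all annotated genes. Bars stand for the 3 single libraries, so they have no error. In the right panel 3, 2 and 2 of 9 genes stand beside 79.6, 48.0 and 64.3% of all genes with such promoters.

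The chromosomes that carry the genes differed in the share of CpG-rich promoters with a peak. On chromosome 7, with Peg3, Cdkn1c and Ndn, this share was 72.2% in the myogenic, 28.6% in the adipogenic and 47.8% in the LSD1(OE) library. On chromosome 12, with Dlk1 and Meg3, it was 72.8, 34.9 and 62.7%, and on chromosome 10, with Plagl1, 86.8, 66.3 and 75.2%. On chromosome 6, with Mest, Sgce and Peg10, it was 79.4, 57.7 and 66.7%, and on chromosome 11, with Grb10, 86.4, 56.0 and 71.6%. Chromosome 7, which carries 3 of the 10 genes, had the lowest of these shares in each library. The part of the chromosome in the counts of the 10 genes was not tested.

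Sgce and Peg10 are a divergent pair of paternally expressed genes. Sgce encodes epsilon-sarcoglycan, a membrane protein of the dystrophin-associated complex, and Peg10 encodes a protein derived from a retrotransposon. Sgce spans chr6:4674350-4747204 on the minus strand and Peg10 chr6:4747306-4760517 on the plus strand, with 101 bp between their TSSs. The myogenic peak lay on chr6:4747270-4747871 with 28 tags and a score of 50. The score is 10 times the negative log10 of the p-value of MACS, the peak caller, and 50 is also the lowest score of all deposited peaks. The adipogenic peak lay on chr6:4747923-4748901 with 71 tags and a score of 100. The peak of the LSD1(OE) library lay on chr6:4747651-4749001 with 92 tags and a score of 210. Within its own library each peak stood at a different height, as 0.0576% of myogenic, 44.3% of adipogenic and 70.8% of LSD1(OE) peaks had a lower score.

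The peaks of the 3 libraries did not sit at the same place. The myogenic summit fell in the untranslated first exon of Peg10, 153 bp downstream of its TSS. The adipogenic and LSD1(OE) summits fell in the only intron of Peg10, 1205 and 919 bp downstream. Myogenic and adipogenic peaks did not overlap and were 51 bp apart, and they belong to 1 region only through the LSD1(OE) peak, which overlapped the myogenic peak by 221 bp and held the whole of the adipogenic peak. The sequence between the TSSs of both genes is shown because it is the promoter they share, with the part inside the myogenic peak in capitals. It holds 13 CpG in 101 bases.

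Sgce-Peg10 promoter, chr6:4747205-4747305, plus strand, mm10: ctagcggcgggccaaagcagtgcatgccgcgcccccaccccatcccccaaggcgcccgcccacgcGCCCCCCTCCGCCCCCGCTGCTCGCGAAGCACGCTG

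The LSD1(OE) summit fell in a tandem repeat. Its 300 bases are shown because this repeat holds the summit of the peak with the highest score at any of the 10 genes, with the copies of CGCTTCATGCGC, the 12-base word found most often in it, in capitals. Shifted by 29 bases, the window matched itself at 66.1% of positions, compared with a median of 32.3% for the best shift of 15 to 60 bases over all LSD1(OE) peaks. Only 0.635% of LSD1(OE) peaks reached this identity. Within the window the word occurred 4 times, and 4.8% of all peaks held some 12-base word as often in theirs. The word occurred 8 times in the LSD1(OE) peak, between 681 and 1055 bp from the Peg10 TSS and with a median spacing of 29 bp. The adipogenic peak held all of these 8 copies and the myogenic peak 0. The window held 29 CpG, against a median of 5.0 in LSD1(OE) peaks. Of its bases, 0% were masked as repeats in the reference, against a median of 7.33% over all LSD1(OE) peaks.

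Peg10 intron, LSD1(OE) summit, chr6:4748075-4748374, plus strand, mm10: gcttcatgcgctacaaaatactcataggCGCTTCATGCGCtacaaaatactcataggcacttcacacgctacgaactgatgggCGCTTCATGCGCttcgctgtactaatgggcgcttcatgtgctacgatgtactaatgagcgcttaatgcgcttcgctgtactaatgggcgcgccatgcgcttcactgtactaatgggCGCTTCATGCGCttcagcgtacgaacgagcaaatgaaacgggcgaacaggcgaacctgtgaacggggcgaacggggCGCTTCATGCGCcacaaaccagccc

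The adipogenic summit lay just past the repeat. The 150 bases round it are shown for comparison, with a match to TGCCGC, the letters bound by the imprint-keeping zinc finger protein Zfp57 when methylated, in capitals on the opposite strand. In the 300 bases round the summit this was 1 match, and 11.1% of all adipogenic peaks had at least 1.

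Peg10 intron, adipogenic summit, chr6:4748436-4748585, plus strand, mm10: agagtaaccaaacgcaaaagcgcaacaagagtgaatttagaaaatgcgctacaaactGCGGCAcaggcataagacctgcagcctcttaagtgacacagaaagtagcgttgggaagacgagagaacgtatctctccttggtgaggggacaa

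**Figure D2:**
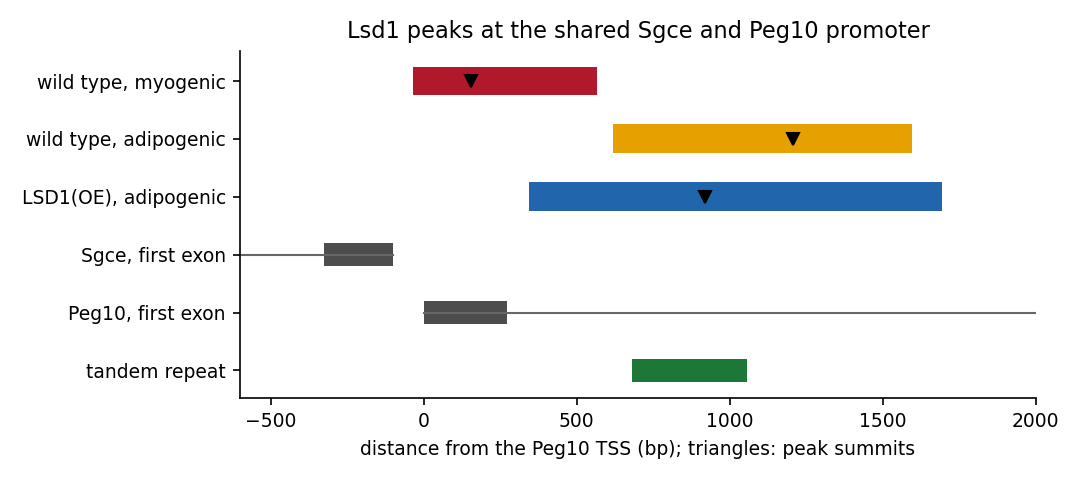
Lsd1 peaks (bars) and their summits (triangles) in the 3 libraries by distance from the Peg10 TSS (bp), with the first exons of Sgce and Peg10 and the tandem repeat of the Peg10 intron. The myogenic summit lies at 153 bp in the first exon of Peg10, while the adipogenic and LSD1(OE) summits lie at 1205 and 919 bp in the intron.

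Tag density, as tags per kb of called peak and per 1000000 ChIP tags, was 1.01 in myogenic medium (95% exact Poisson interval 0.67 to 1.46), 1.13 in adipogenic medium (0.886 to 1.43) and 1.23 in the LSD1(OE) library (0.995 to 1.51). These intervals cover counting error only, and they overlap. The ratio of LSD1(OE) to adipogenic density was 1.09 (exact binomial interval 0.789 to 1.5), equal to the median of 1.09 over 11121 regions with 1 peak in both libraries. It was not past 1.5-fold, as 2.99% of those regions were in the higher and 0.0899% in the lower direction. Without division by peak length the ratio of tags per 1000000 ChIP tags was 1.5, since the adipogenic peak was called shorter. Tags outside the called peaks were not counted.

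Grb10 encodes an adaptor protein that binds insulin and IGF receptors and restrains growth, and most tissues express its maternal copy. It spans chr11:11930499-12037420 on the minus strand and has curated TSSs at 12037420 and 12027971. Neither TSS had a promoter peak in any library, although the upstream one had the highest CpG ratio of all the TSSs examined here. All peaks of Grb10 lay in the distal part of the gene or beyond it, in introns or past the 3' end. A peak in intron 12 of the longest transcript was called in all 3 libraries, 88.2 kb downstream of the nearer TSS in myogenic medium. In myogenic medium it lay on chr11:11939342-11940195 with 44 tags and a score of 90.6. In adipogenic medium it lay on chr11:11939193-11940183 with 79 tags and a score of 133. The LSD1(OE) library had it on chr11:11939426-11940318 with 67 tags and a score of 189. The myogenic and adipogenic summits were 30 bp apart, and the LSD1(OE) summit lay 246 bp from the adipogenic one.

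The densities at this site were 1.12 in myogenic medium (Poisson interval 0.811 to 1.5), 1.25 in adipogenic medium (0.987 to 1.55) and 1.36 in the LSD1(OE) library (1.05 to 1.73), with overlapping intervals. The ratio of adipogenic to myogenic density was 1.12 (exact binomial interval 0.763 to 1.65). Across the 12085 regions with 1 peak in both libraries the median ratio was 0.796, and 88.6% of regions had the lower density in adipogenic medium. The ratio at Grb10 exceeded that of 96.7% of these regions, but its interval includes the median. It was not past 1.5-fold, as 0.0414% of regions were in the higher and 18.0% in the lower direction. The ratio of LSD1(OE) to adipogenic density was 1.09 (0.775 to 1.53), which is also the median over regions. Neither of these ratios differed from 1 beyond counting error, and LSD1(OE) was not compared with the myogenic library.

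The 300 bases round the LSD1(OE) summit are shown because this is the only site at the 10 genes where the peaks of all libraries overlapped each other. Capitals mark TGACTCA, a match to the AP-1 letters TGANTCA, and CACCTG, the E-box bound by Snail. AP-1 is the dimer of Fos and Jun proteins. An AP-1 match also lay in the windows round the myogenic and adipogenic summits, and 18.9, 20.3 and 18.1% of all myogenic, adipogenic and LSD1(OE) peaks had at least 1.

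Grb10 intron, LSD1(OE) summit, chr11:11939790-11940089, plus strand, mm10: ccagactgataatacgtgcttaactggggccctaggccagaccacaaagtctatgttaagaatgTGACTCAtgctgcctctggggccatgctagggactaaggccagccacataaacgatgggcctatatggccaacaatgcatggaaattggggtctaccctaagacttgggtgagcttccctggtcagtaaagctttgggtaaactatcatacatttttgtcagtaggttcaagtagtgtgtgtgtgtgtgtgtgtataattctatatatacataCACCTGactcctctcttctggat

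Another 3 Grb10 peaks were called in the myogenic library alone. They lay on chr11:11968464-11969092 in intron 3 with 32 tags, on chr11:11953256-11953964 in intron 6 of the longest transcript with 37 tags, and on chr11:11928363-11928973, 1.83 kb past the end of the gene, with 29 tags. Their scores were 66.1, 80.9 and 51.2, and their densities of 1.1, 1.13 and 1.03 were below the median of 1.22 over all myogenic peaks. The lowest tag count of any myogenic peak was 27, of any adipogenic peak 35 and of any LSD1(OE) peak 30.

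**Figure D3:**
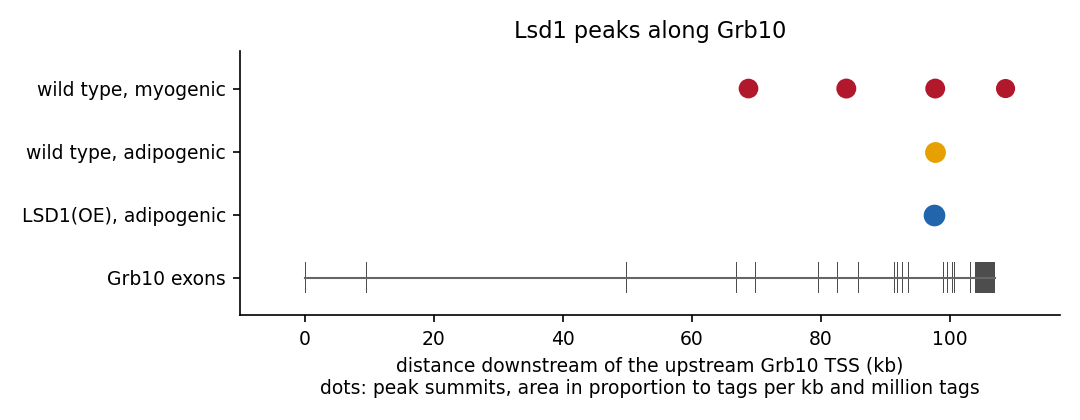
Summits of the Lsd1 peaks at Grb10 (dots, with an area in proportion to tags per kb and 1000000 tags) by distance downstream of the upstream TSS (kb), with the exons of the curated transcripts. The myogenic library has 4 peaks and each adipogenic library 1, and the latter lie at the position of the myogenic peak near 97.7 kb.

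Mest encodes a hydrolase-like protein whose paternal copy is expressed and which is linked to the expansion of fat tissue. It spans chr6:30733506-30748466 on the plus strand. Its only peak, on chr6:30738101-30738728 in the myogenic library, had 31 tags, a score of 60 and a density of 1.07 (Poisson interval 0.727 to 1.52). Among myogenic peaks 20.1% had a lower score. The centre lay 361 bp and the summit 418 bp downstream of the TSSs at 30738050 and 30738053, in intron 1, while the upstream TSS at 30733506 had no peak. The CpG ratio was 0.778 at the TSSs near the peak and 0.404 at the upstream one. The nearest adipogenic and LSD1(OE) peaks were 40.1 and 28 kb upstream of the gene. The intronic bases round the summit are shown with 2 matches to TGCCGC in capitals, a count of letters found at least once in 9.4% of all myogenic peaks.

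Mest intron 1, myogenic summit, chr6:30738336-30738620, plus strand, mm10: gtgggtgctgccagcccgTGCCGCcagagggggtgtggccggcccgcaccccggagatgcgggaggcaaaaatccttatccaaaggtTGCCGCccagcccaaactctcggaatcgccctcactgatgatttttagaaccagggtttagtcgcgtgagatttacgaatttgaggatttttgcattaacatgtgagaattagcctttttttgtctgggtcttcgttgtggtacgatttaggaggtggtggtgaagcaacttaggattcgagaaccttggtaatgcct

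Altogether the peaks formed 6 separate regions. Of these, 4 had a peak in the myogenic library only, a pattern found in 35.9% of all 56729 regions, and 2 had a peak in all 3 libraries, found in 20.6%. No region had a peak only in the adipogenic library, only in the LSD1(OE) library or only in both of these. Over all regions these patterns made up 3.7, 20.8 and 2.45%. All 6 myogenic peaks scored below the median of 122 over myogenic peaks. Scores were also divided by the factor by which ChIP tags had been scaled up for calling. These unscaled scores only approximate what unscaled tags would have given. The myogenic ones ranged from 26.4 to 47.8, whereas the adipogenic ones were 78.6 at Peg10 and 104 at Grb10. The LSD1(OE) ones were 115 and 103. An unscaled score of at least 50 was reached by 58.1% of all myogenic, 83.8% of adipogenic and 59.5% of LSD1(OE) peaks. With this limit 0 of the 10 genes had a myogenic peak, while 54.6% of all genes did, and 3 genes each had an adipogenic and an LSD1(OE) peak, against 37.2 and 43.7% of all genes. With deposited scores of at least 100, 0 of the 9 CpG-rich promoters had a myogenic peak and 72.4% of such promoters over all genes did. At this limit, however, 3 of the 10 genes had an adipogenic peak, against 29.2% of all genes. An adipogenic promoter peak was present at 2 of them, against 18.2%. These 2 adipogenic shares were thus not below those of all genes. Among the 9 CpG-rich promoters 2 had an adipogenic peak, a smaller share than the 32.8% of such promoters over all genes.

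**Figure D4:**
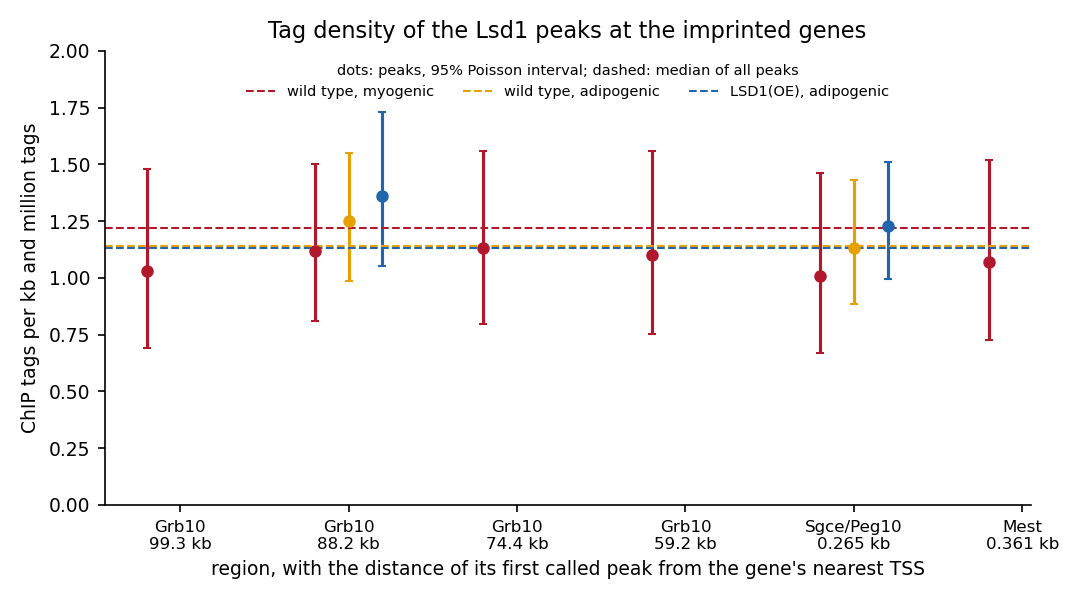
Tag density (ChIP tags per kb of peak and 1000000 tags) of the 10 peaks in 6 regions, with 95% exact Poisson intervals, and the median over all peaks of each library (dashed lines). The myogenic peaks lie between 1.01 and 1.13, below the myogenic median of 1.22, and the intervals of the libraries overlap in both shared regions.

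The 6 genes without a peak differed in how far the nearest one was. Dlk1 encodes a transmembrane protein with EGF-like repeats that holds preadipocytes back from differentiation, and Meg3 is the maternally expressed long non-coding RNA of the same cluster. Dlk1 spans chr12:109452823-109463336 and Meg3 chr12:109540996-109571729, both on the plus strand. In myogenic medium a peak lay just outside each window. The peak nearest Dlk1, on chr12:109441078-109441694, was centred 11.4 kb upstream of its TSS with 29 tags and a score of 50.1. The peak nearest Meg3, on chr12:109528216-109528858 between the genes, was centred 12.5 kb upstream with 31 tags and a score of 56.9. The control region of this cluster lies between Dlk1 and Meg3, but the annotation used here does not give its bounds. In adipogenic medium the flanking peaks left a gap of 1.1 Mb that holds both genes, with the nearest peaks 458 kb from Dlk1 and 544 kb from Meg3. In LSD1(OE) cells the nearest peaks were 27.8 and 116 kb away.

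Peg3 and Plagl1 encode zinc finger proteins, of which Plagl1 regulates other imprinted genes, and Cdkn1c encodes an inhibitor of cyclin-dependent kinases that helps muscle precursors leave the cell cycle. Peg3 spans chr7:6705960-6730419, Plagl1 chr10:13090832-13131694 and Cdkn1c chr7:143458339-143461050. The nearest myogenic peaks were 43.5 kb from the Peg3 TSS, 25.1 kb from that of Plagl1 and 87.9 kb from that of Cdkn1c. In adipogenic medium these distances were 320, 82.5 and 188 kb, and in LSD1(OE) cells 183, 102 and 189 kb. The median over all genes was 4.01 kb to myogenic, 34.3 kb to adipogenic and 13.1 kb to LSD1(OE) peaks. At each of these 3 genes the myogenic peak was the nearest.

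Ndn, a gene of 1 exon whose product necdin belongs to the MAGE family and is a growth suppressor with roles in muscle precursors and fat cells, spans chr7:62348277-62349928. It lay deep in a stretch without any peak, which ran from 3120 kb before the gene to 1550 kb after it in myogenic medium. The stretch was 4.67 Mb long in this library, 5.15 Mb in adipogenic medium and 4.62 Mb in LSD1(OE) cells. A nearest peak farther away was found at 1.68% of all genes among myogenic, 2.86% among adipogenic and 2.14% among LSD1(OE) peaks. The CpG ratio at its TSS was 0.668, and of all genes with such CpG-rich promoters on chromosome 7, 72.2% had a myogenic promoter peak.

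**Figure D5:**
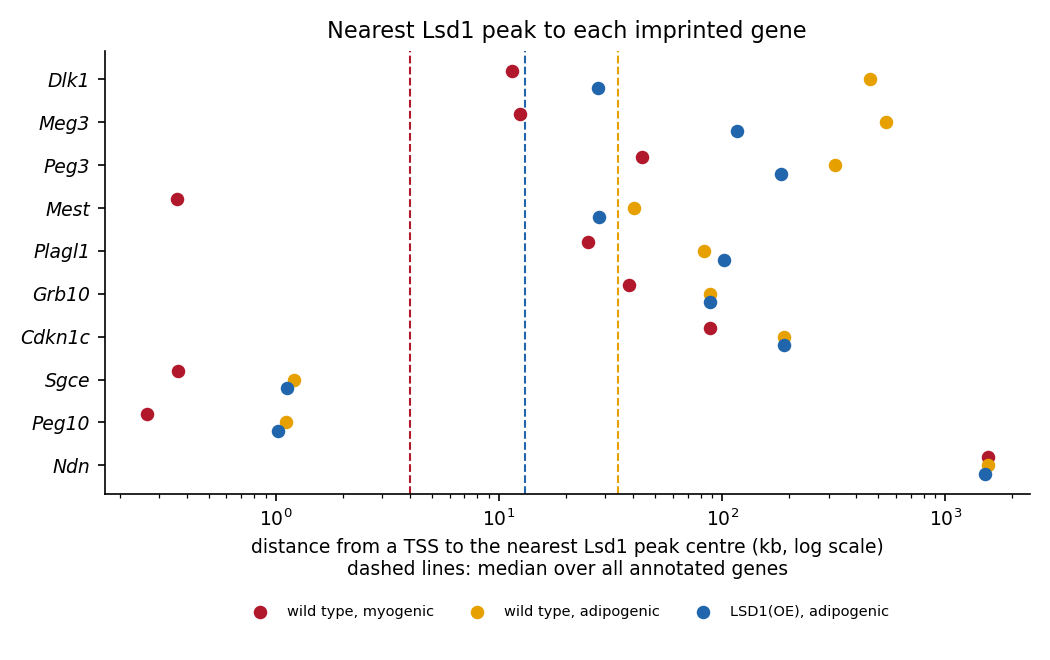
Distance (kb, log scale) from a TSS of each of the 10 genes to the centre of the nearest Lsd1 peak in the 3 libraries, with the median over all genes (dashed lines). At Mest in myogenic medium and at Sgce and Peg10 in all libraries a peak lies within 2 kb of the TSS, whereas at Ndn the nearest peaks lie 1500 to 1550 kb away.

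A further 62 imprinted genes, of 64 listed by name, were counted in the same way. Peaks in the gene window were found at 39 of them in the myogenic, 26 in the adipogenic and 31 in the LSD1(OE) library, which is 62.9, 41.9 and 50%. These shares stand near the 62.5, 41.2 and 53.9% of all genes. Promoter peaks were found at 27, 11 and 14 of the 62, which is 43.5, 17.7 and 22.6%, compared with 46.8, 27.0 and 37.3% of all genes. Among the 38 of them with a CpG-rich promoter, 19, 9 and 10 had one, or 50, 23.7 and 26.3%, compared with 79.6, 48.0 and 64.3% of all genes with such promoters. Lower shares at CpG-rich promoters were thus not particular to the 10 genes. Per Mb of window the 62 genes held 22.3, 7.65 and 10.8 peaks. The 6 with the highest promoter score were Gab1, Gnas, Trappc9, Nnat, Pon2 and H13, with top scores of 2950, 1050, 853, 713, 707 and 680. Gab1 encodes a docking protein of growth factor receptors and Gnas the stimulatory G protein subunit.

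The listed imprinted genes in the clusters of the 10 genes had peak counts from 0 to 12 in myogenic medium. Next to Grb10, Ddc had 12 myogenic peaks and Cobl 9, against 4 at Grb10. Such counts were not scaled by the length of each gene window. In the cluster of Sgce and Peg10, Pon2 had a promoter peak in all 3 libraries with scores of 670, 191 and 707. Pon3 also had a promoter peak in each, with scores of 215, 163 and 70.4, and Asb4 had 1 peak in each outside its promoter. Ppp1r9a and Casd1 had 1 peak in myogenic medium only, and Calcr and Tfpi2 had none in any library. Beside Mest, Copg2 had 3, 1 and 1 peaks in the 3 libraries and Klf14 had none. In the region of Ndn, the genes Magel2, Mkrn3, Peg12 and Snrpn had no peak in any library, whereas Atp10a had 6, 4 and 5. Ube3a in this region had 1, 0 and 1, both at its promoter, with scores of 236 and 86.9. Beside Dlk1 and Meg3, the genes Rtl1, Rian and Dio3 had no peak in any library, while Mirg had 1 in LSD1(OE) cells and Begain 2 in myogenic medium. Near Peg3, Usp29 had 6, 0 and 1 peaks and Zim1 none, and near Plagl1, Phactr2 had none. Around Cdkn1c, the genes Phlda2, Slc22a18, Kcnq1ot1 and Ascl2 had no peak in any library. Kcnq1 had 1 peak, Nap1l4 had 1, at its promoter, and Tnfrsf23 had 2, all in myogenic medium only. Cd81 had 4, 1 and 0 peaks in the 3 libraries and Tssc4 had 2, 1 and 0.

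Of 12 sets of letters searched on both strands in the 300 bases round the 10 summits, 4 were found. TGCCGC was found at Mest and in the adipogenic window of Peg10. CCATNTT, the core of Yy1 sites, was found at the intron 12 site of Grb10 in myogenic and adipogenic windows and at its intron 3 peak, and in 16.1% of all myogenic peaks. TGANTCA was found only at the intron 12 site of Grb10. CACCTG was found there in the LSD1(OE) window and once at Mest, and in 25.7% of LSD1(OE) and 22.7% of myogenic peaks. No match was found for the E-box CAGCTG, the cAMP response element TGACGTCA, the Gfi1 core AAATCAC, the Tead core GGAATG, the C/EBP letters TTGCNNAA, the glucocorticoid receptor letters ACANNNTGT, or the cores of Ctcf and Mef2, which are held by 0.887 to 25.8% of all myogenic peaks. A match describes letters and no binding of a factor.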

How the data were processed

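Lsd1 ChIP-seq was measured in C2C12 cells in 3 conditions with 1 ChIP and 1 input library each, grouped by the sample titles. The authors mapped single reads to mm10 with Bowtie (Bowtie2 in the submitters' processing notes) and called peaks of each ChIP library against its own input. Per the file headers this was done with MACS 1.4.2 (the submitters' notes give 1.41). The deposited lists give a count of filtered ChIP tags per peak, without normalization. The deposited score is 10 times the negative log10 of the p-value, for which the authors' run scaled ChIP tags up by 1.9, 1.28 and 1.82 in myogenic, adipogenic and LSD1(OE) libraries. The deposited fold enrichment is not on 1 scale in the libraries and was not used. The deposited FDR is in percent, and all peaks were under 1%. The deposited BED files held the same positions and score values.

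Genes were curated RefSeq genes of GRCm38.p6, which is mm10 (26182 genes, 31647 TSSs), and sequences were read from the RefSeq genome of that build. Peaks of different libraries that overlapped by at least 1 bp were merged into a region. Density is tags per kb of peak and 1000000 filtered ChIP tags, with 95% exact intervals that cover counting error only. No test between conditions was possible with 1 library each. The 10 genes, the list of other imprinted genes and the motifs were chosen with earlier results of these data known. All 10 genes are named, and of the other imprinted genes the 6 with the highest promoter score. Neighbours in the same clusters were named after their values were seen. Alternatives were stricter peak limits, equal peak numbers, unscaled scores, other windows and other ways to assign or share peaks. Steps were tested on simulated peaks. Scripts used pysam 0.24.0, SciPy 1.17.1, pandas 2.3.3, NumPy 2.4.6 and matplotlib 3.10.9 under Python 3.11.15. RNA-seq and reads were not analysed here.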

Additional observations from a re-analysis of the deposited data

How the results depend on the processing

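No paired analysis was possible because each condition has 1 ChIP library, and no library could be left out in turn. Of the alternative values, 65 were classed as kept and 50 as moved. A count was kept when it was within 1.5-fold of the reported one, and a change to or from 0 was a move. A score was kept when its unscaled value was at least 50, and a density ratio when it lay in the interval of the reported one. A kept value could thus still differ from the value reported. In myogenic medium, 0 genes had a peak, 0 had a promoter peak and 0 of 9 CpG-rich promoters had one with an FDR limit of 0.1%, with a score of at least 100, with equal peak numbers and with an unscaled score of at least 50. The shares over all genes were then 49.1 to 54.6%, 36.4 to 40.9% and 66.3 to 73.2%. In this library each of these settings kept only peaks with a score of at least 94.8, above the highest score of 90.6 at the 10 genes. The zeros are therefore not independent of each other. Under each of these settings the number of regions was 2 in place of 6, with 0 in the myogenic library only and 0 in all 3. With the score limit, equal numbers and the unscaled score, 2 were in both adipogenic libraries. With the FDR limit of 0.1%, 1 was in both adipogenic libraries and 1 in LSD1(OE) cells only. At this limit 1 gene had an adipogenic peak and 0 an adipogenic promoter peak, against 26.1 and 16.0% of all genes. The unscaled scores in myogenic medium were 47.8 at Grb10, 31.6 at Mest and 26.4 at Sgce and Peg10. With 50 kb either side of the genes, 8 genes had a myogenic and 5 an LSD1(OE) peak, in 19 regions, of which 14 were in the myogenic library only and 2 in LSD1(OE) cells only. With a promoter of 1000 bp, 0 genes had an adipogenic or LSD1(OE) promoter peak. When the TSS also had to be the nearest of all genes, 1 gene had one in each adipogenic library. The split by CpG and each of its settings were chosen after seeing the data. With a CpG ratio of at least 0.75, 1 of the 6 genes left had a promoter peak in each adipogenic library. When shared peaks had to overlap by at least 0.5 of the shorter one, 1 region was in all 3 libraries and 1 in both adipogenic ones. For the merged region of Sgce and Peg10, the tags of each library's called peak were also divided by library size alone. By this measure the ratio was 1.83 for adipogenic over myogenic medium and 1.5 for LSD1(OE) cells over adipogenic medium. The peaks differ in called length, and the myogenic and adipogenic peaks did not overlap. Tags outside the called peaks were not counted, so these ratios are not densities over the whole region. With TSSs of GENCODE, also chosen after seeing the data, 4, 2 and 2 genes had a promoter peak in the 3 libraries. For the other windows, promoter lengths, TSS rules and CpG limit, shares over all genes were not computed, so these counts have no background. A signal under 27 tags in myogenic, 35 in adipogenic or 30 in LSD1(OE) libraries was not called at any gene.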
